A study of Rattus norvegicus with 8 samples.

Results

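The transcripts described here are those of the mitochondrial respiratory chain and ATP synthase, from the nuclear and from the mitochondrial genome. Members were chosen by name and position only. They are the loci on chromosome MT, the loci with a single gene symbol that starts with Ndufa, Ndufb, Ndufc, Ndufs, Ndufv, Uqcr, Atp5 or Cox4 to Cox8, and Sdha, Sdhb, Sdhc, Sdhd and Cycs. Names of pseudogenes and loci with fewer than 80 fragments over the 8 libraries were dropped. This left 90 of 52753 loci in the deposited table, 85 of them nuclear and 5 on chromosome MT.

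The respiratory chain sits in the inner mitochondrial membrane. Complex I (NADH dehydrogenase) and complex II (succinate dehydrogenase) pass electrons to ubiquinone, complex III (the cytochrome bc1 complex) passes them to cytochrome c, and complex IV (cytochrome c oxidase) passes them to oxygen. Complexes I, III and IV pump protons, and complex V (ATP synthase) uses the proton gradient to make ATP. Subunits of complexes I, III, IV and V come from both genomes, while complex II is encoded in the nucleus alone. In the small intestine this ATP supports the ion and nutrient transport of absorptive enterocytes.

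The libraries are stranded mRNA sequencing libraries of whole small intestine from Sprague Dawley rats at postnatal day 21. There are 4 from rats with cystic fibrosis (CF), the disease caused by loss of the CFTR anion channel, and 4 from wild-type (WT) rats. The labels give no CFTR allele, sex, litter or batch, and do not say whether each library is a separate animal, and p-values thus measure only how far these libraries spread. The comparison asks how the CF intestine differs from the WT intestine.

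Each library held 15.3 to 20.9 M assigned fragments. Library numbers, 0 to 3 in each group, serve as names and pair nothing. The tissue label was checked against markers of enterocytes. Of the 19 entries of that list 18 were found in the table, Sis not under that symbol, and 21 of their 22 loci passed the filter on low counts, with a median of 376.6 FPKM (fragments scaled by transcript length and library size). Wherever a level is given in CPM below, it is a count scaled to the library's size. A log2 fold change above 0 means a higher level in CF, and SE is its standard error.

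The nuclear members comprised 35 loci of complex I, 4 of complex II, 9 of complex III, 15 of complex IV, 14 of complex V, the somatic cytochrome c gene Cycs, and 7 assembly factors of complex I whose names start with Ndufaf. Of 95 nuclear loci with a matching name, 2 carried pseudogene names (Cox6c-ps1 and Ndufv3-ps1) and the others dropped were under 80 fragments. The dropped loci included both loci named Ndufa1, each with 0 fragments, Ndufa13 with 17 fragments, and the alternative complex IV subunits Cox7a1 with 51, Cox8b with 1, Cox8c with 1 and Cox7b2 with 0. Ndufa1 and Ndufa13 encode subunits that complex I carries in every tissue, and why their loci held so few fragments was not tested. A further 3 loci that join a matching name with other symbols were left out by the rule.

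Several members share a name or lie in a bundle of overlapping transcripts. Uqcrb has a locus on chromosome 7 (71264514 to 71269869 in the build Rnor_6.0) and another on chromosome 1 (94687356 to 94728323). Cox6b1 has a locus on chromosome 1 (89075795 to 89084869) and a short one on chromosome 2 (211337271 to 211337531), and Ndufb2 has 2 loci on the same span of chromosome 4 (67359521 to 67385266). Fragments could have been divided between such copies by the counting. Atp5f1, which encodes a stalk subunit of ATP synthase, held only 347 fragments over the 8 libraries, far below its partners in the complex.

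Promoters of nuclear members were read for 3 motifs of factors known to drive respiratory genes: NRF1, GABPA (NRF2) and YY1. Of the 85 nuclear members, 73 (71 genes) matched a window of 250 bases before to 50 bases after the start in RefSeq (build GRCr8), 60 by symbol and 13 by synonym. On either strand, the NRF1 motif GCGCATGCG was found for 9 of the 71 genes (12.7%), against 1.7% of the 27457 genes with a window and 2.1% of the 19005 protein-coding ones. The GABPA motif CCGGAAGT was found for 7 (9.9%, against 4.2% and 5.1%), and the YY1 motif AAGATGGCG for 8 (11.3%, against 2.0% and 2.3%). At least 1 of the 3 was found for 23 genes (32.4%, against 7.4% and 8.9%). These matches describe letters in a window and were not measured as binding. Windows were matched by name and not by position. The window of Cox7a2l2, whose locus is on chromosome 8, thus lies on chromosome 14. The Cox6b1 locus on chromosome 2 took the Cox6b1 window on chromosome 1. Neither window held any of the 3 motifs.

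The 5 stretches below are shown because they carry such a match in a gene of complex I, III, IV, V and cytochrome c. Each is the 170 bases before the start, read 5′ to 3′ on the gene's strand. Capitals mark the match, or its reverse complement, and overlapping matches run together. In Ndufa11 (chr9:1637444-1637613, plus strand), Uqcrc1 (chr8:118468053-118468222, plus strand), Atp5o (chr11:44657484-44657653, minus strand) and Cycs (chr4:80984768-80984937, minus strand) they mark the NRF1 motif, and in Cox8a (chr1:213833624-213833793, minus strand) the GABPA motif, all in GRCr8.
Ndufa11: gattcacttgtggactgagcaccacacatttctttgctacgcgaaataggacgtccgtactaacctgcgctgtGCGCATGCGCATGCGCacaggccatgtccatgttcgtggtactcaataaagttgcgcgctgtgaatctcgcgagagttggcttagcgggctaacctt
Uqcrc1: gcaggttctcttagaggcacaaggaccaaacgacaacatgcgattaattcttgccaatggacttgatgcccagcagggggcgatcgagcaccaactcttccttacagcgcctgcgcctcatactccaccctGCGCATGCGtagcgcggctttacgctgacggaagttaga
Cox8a: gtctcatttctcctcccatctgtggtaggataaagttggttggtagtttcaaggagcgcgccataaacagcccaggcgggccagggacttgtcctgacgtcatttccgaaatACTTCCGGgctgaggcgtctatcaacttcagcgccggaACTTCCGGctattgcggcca
Atp5o: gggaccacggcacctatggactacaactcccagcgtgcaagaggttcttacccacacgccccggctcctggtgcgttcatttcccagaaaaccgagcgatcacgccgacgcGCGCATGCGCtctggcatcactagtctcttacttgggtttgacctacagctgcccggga
Cycs: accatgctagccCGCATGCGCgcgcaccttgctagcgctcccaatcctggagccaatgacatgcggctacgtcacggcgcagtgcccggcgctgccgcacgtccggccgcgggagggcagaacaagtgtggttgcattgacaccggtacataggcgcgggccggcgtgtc
The NRF1 match starts 39 bases before the start in Uqcrc1 and 158 bases before it in Cycs. In Ndufa11 overlapping matches on both strands start 97, 96, 91 and 90 bases before the start, in Atp5o 59 and 58 bases before it. Cox8a holds the GABPA match at 2 places, 58 and 20 bases before the start. The 5 genes had log2 fold changes of −0.01 (SE 0.10) for Ndufa11, 0.09 (SE 0.15) for Uqcrc1, 0.21 (SE 0.14) for Cox8a, −0.11 (SE 0.15) for Atp5o and 0.04 (SE 0.18) for Cycs.

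Respiratory chain transcripts showed no difference between CF and WT intestine that passed the test. In edgeR's quasi-likelihood test over 16941 loci, with p-values adjusted by Benjamini and Hochberg, 28 loci passed an adjusted p of 0.05, which is 0.165% of those tested. Of the 90 members, all tested, 0 passed. DESeq2, which called 566 of 40061 loci, and limma-voom, which called 17 of 16941, also called 0 members. At an unadjusted p of 0.05, 2 members passed (2.22%), against 15.1% of all loci tested, and the groups overlapped in every member, whereas they did not overlap in 8.77% of all loci tested. The mean was higher in CF for 46 members and lower for 44, with a median log2 fold change of 0.00 and a range from −0.68 to 0.29.

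The intervals of most members bounded the size of a possible difference. The median SE of the members' log2 fold changes was 0.14, against 0.18 over all loci tested. Members were also more abundant, with a median of 107.6 CPM against 15.1 CPM over all loci tested. The comparisons with all loci were not matched for abundance. For 79 of the 90 members (87.8%) the 95% interval of the log2 fold change lay within ±0.58, a change of 1.5-fold in either direction, against 7931 of all loci tested (46.8%). The 11 members whose intervals reached past that limit were mostly of low abundance: Ndufaf2, Ndufaf6, Ndufa4l2, the weaker Ndufb2 locus, Cox4i2, Cox6a2, Cox6b2, the Cox6b1 locus on chromosome 2, Atp5f1, Atp5s and 1 locus on chromosome MT. An interval could pass the limit by its position as well as by its width. That of Ndufaf2 ran from −0.63 to 0.14, while that of the abundant MT locus with Mt-co1, from −0.56 to 0.45, stayed inside. Differences inside these intervals were not excluded with 4 libraries a group.

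**Figure D1:**
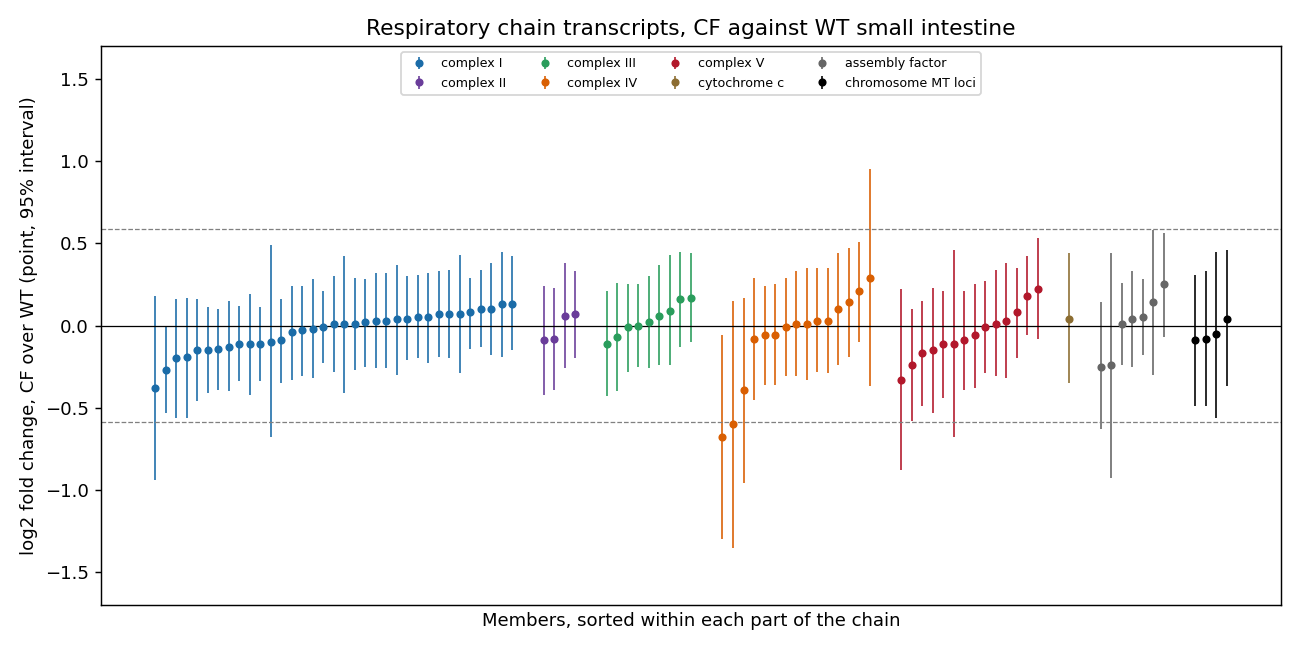
Log2 fold change of CF over WT for 89 members, with 95% intervals from edgeR's quasi-likelihood fit, sorted within complexes I to V, cytochrome c, assembly factors and chromosome MT; dashed lines mark 1.5-fold. Points lie around 0 in every complex, and the widest intervals belong to weakly expressed members. The locus on chromosome MT with placeholder names is left out.

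The direction of the split rested on the scaling and on single libraries. Under scaling by total fragments alone, the median of all loci moved to −0.08, and 15 members had a higher and 75 a lower mean in CF, with a median of −0.07. Members thus moved with the median of all loci. In that scaling the mean was higher in CF for 4 of 35 loci of complex I and 0 of 4 of complex II. It was higher for 3 of 9 of complex III, 4 of 15 of complex IV and 2 of 14 of complex V. The same held for 2 of 7 assembly factors, but not for Cycs (−0.02) or any of the 5 MT loci (median −0.16). In the main fit 1 of the MT loci was higher in CF and 4 were lower, with a median of −0.08. Without WT library 0 the split of all members was 17 higher and 73 lower, and without CF library 1 it was 24 and 66. Without WT library 3 it turned to 65 higher and 25 lower. No member was called in any of these fits.

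Transcripts of the mitochondrial genome took a large part of every library. Loci on chromosome MT held 14.0%, 15.3%, 13.9% and 12.3% of the fragments in CF libraries 0, 1, 2 and 3, and 13.3%, 15.3%, 16.2% and 15.7% in WT libraries 0, 1, 2 and 3. The means were 13.9% ± 1.24 (SD, n = 4) in CF and 15.1% ± 1.26 (SD, n = 4) in WT, a difference of −1.28 percentage points that is about the size of the SD within a group. The groups overlapped, with CF libraries 0, 1 and 2 above WT library 0. CF library 1 was level with WT library 1, and CF library 3 was lowest of all. In whole tissue, fewer cells of a type and less RNA per cell cannot be told apart in such a share.

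The 85 nuclear members together held far fewer fragments. Their share was 1.35%, 1.49%, 1.43% and 1.28% in CF libraries 0 to 3 and 1.30%, 1.41%, 1.49% and 1.62% in WT libraries 0 to 3. The means were 1.39% ± 0.091 (SD, n = 4) and 1.45% ± 0.135 (SD, n = 4). CF library 3 was lowest and WT library 3 highest, and the other libraries of both groups lay between them. Per fragment at a nuclear member there were 10.4, 10.3, 9.76 and 9.55 fragments at MT loci in CF libraries 0 to 3, and 10.3, 10.9, 10.9 and 9.70 in WT libraries 0 to 3. The balance of the 2 genomes thus lay between 9.55 and 10.9 in all 8 libraries and overlapped between the groups. Without the MT locus of placeholder names, described below, it lay between 8.53 in CF library 2 and 10.8 in WT library 1, with 9.33 in WT library 2.

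**Figure D2:**
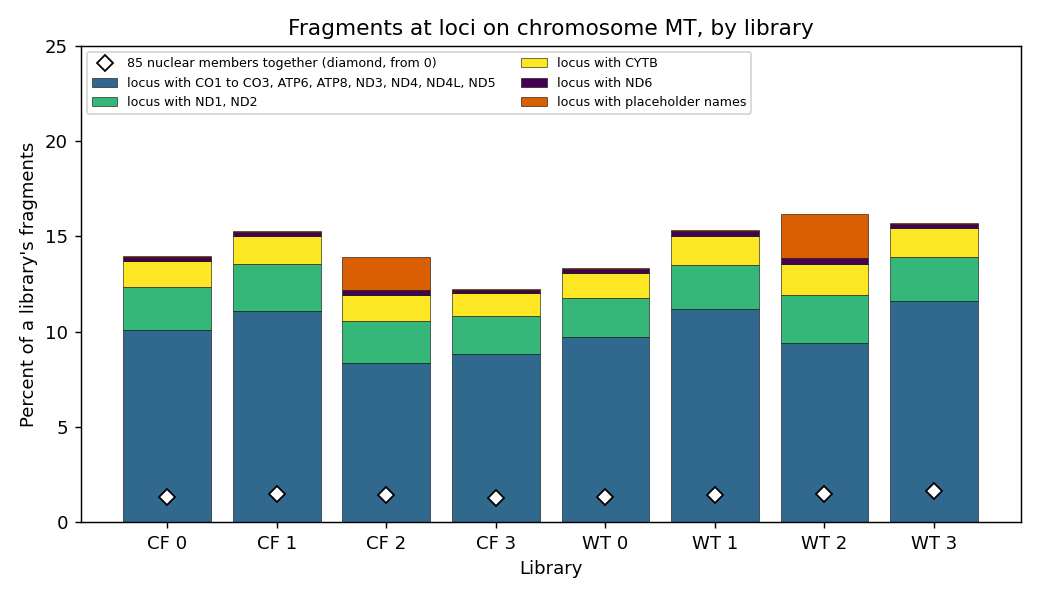
Percent of each library's fragments at the 5 loci on chromosome MT (stacked bars) and at the 85 nuclear members together (diamonds), for 4 CF and 4 WT libraries. The stacks reach 12.3% to 15.3% in CF and 13.3% to 16.2% in WT, and the locus with placeholder names is wide only in CF library 2 and WT library 2.

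The deposited table bundles the genes of chromosome MT into a few loci, so single mitochondrial genes could not be read apart. Each locus with gene symbols also carries placeholder names, so its level cannot be credited to the named genes alone. The largest holds Mt-co1, Mt-co2 and Mt-cox3, the catalytic core of complex IV, with Mt-atp6 and Mt-atp8 of ATP synthase and Mt-nd3, Mt-nd4, Mt-nd4l and Mt-nd5 of complex I. It stood at 100168.3, 122250.2, 82846.1 and 91737.9 CPM in CF libraries 0 to 3 and at 90439.5, 107685.5, 91424.1 and 121552.4 CPM in WT libraries 0 to 3, with a log2 fold change of −0.05 (SE 0.23). The highest and the lowest of the 8 values were both CF libraries.

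The locus with Mt-nd1 and Mt-nd2, further subunits of complex I, and placeholder names was at 23032.0 ± 2840.1 CPM in CF and 22336.5 ± 2449.0 in WT (SD, n = 4 each). Its log2 fold change was 0.04 (SE 0.19). The locus with Mt-cytb, the only mitochondrially encoded subunit of complex III, and a placeholder name was at 13064.0, 15894.4, 13782.6 and 12716.5 CPM in CF libraries 0 to 3 and at 11978.1, 14797.4, 16137.4 and 16116.8 CPM in WT libraries 0 to 3. Its log2 fold change was −0.09 (SE 0.18). The WT libraries covered the whole range of the CF libraries at this locus. The locus with Mt-nd6, the complex I gene on the opposite strand of the circular genome, and placeholder names was at 2179.0 ± 284.0 CPM in CF and 2302.7 ± 504.0 in WT (SD, n = 4 each), a log2 fold change of −0.08 (SE 0.18). None of the mitochondrial genes named in these 4 loci belongs to complex II.

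The fifth MT locus carries only placeholder names (AY172581 with a number) and was high in a single library of each group, the one numbered 2. It was at 533.0, 638.4, 17320.1 and 609.8 CPM in CF libraries 0 to 3 and at 456.7, 871.8, 22172.9 and 584.5 CPM in WT libraries 0 to 3. CF library 2 and WT library 2 thus stood apart from the other 6, where this locus took 0.0492% to 0.0905% of fragments, against 1.75% and 2.29%. Its log2 fold change of −0.33 had an SE of 1.72 and became −3.34 without CF library 2 and 2.91 without WT library 2. Without this locus the MT share was 13.4% ± 1.49 in CF and 14.5% ± 1.12 in WT (SD, n = 4 each), a difference of −1.14 points. In all, 41 loci tested were over 2 times the highest other library in both libraries numbered 2, and 33 of them have no gene name. This locus is the only member among the 41. Leaving out both libraries changed no call among members and left 13 loci called over the table.

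FPKM values of MT loci were not stable between libraries with like fragment numbers. The locus with Mt-co1 held 10.1% of fragments and 115969.0 FPKM in CF library 0, but 11.1% and 267441.0 FPKM in CF library 1. By summed FPKM, MT loci took 22.0% to 39.4% in CF and 24.0% to 42.9% in WT. Levels of MT loci are therefore given as fragments and CPM, and are not compared with nuclear genes per length.

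Among nuclear members, the median level per length differed between complexes, while their ranges overlapped. Members of complex I ran from 1.33 to 325.7 FPKM and those of complex V from 1.02 to 1354.3 FPKM. The median over members of the mean FPKM of the 8 libraries was 113.6 for complex I, 226.3 for complex II, 169.1 for complex III, 305.2 for complex IV, 399.5 for complex V and 201.5 for Cycs. Assembly factors, which help build complex I and do not remain in it, had a median of 8.34 FPKM. These medians are set over genes of 1 tissue and carry no test. Within complexes I, IV and V a few members lay far below the rest, and these are the weaker loci of doubled names, Atp5f1, the alternative subunits described later, Ndufa12 at 15.5 FPKM and Atp5s at 1.02 FPKM.

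**Figure D3:**
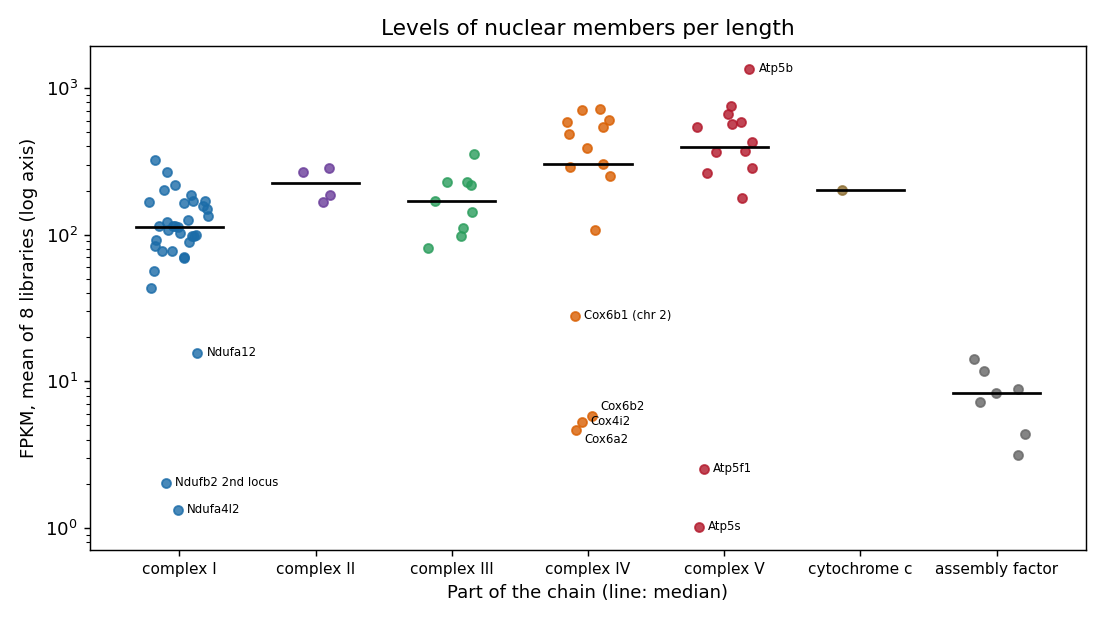
FPKM (mean of 8 libraries, log axis) of each nuclear member by part of the chain, with the median as a line. Atp5b is highest at 1354.3 FPKM, complexes IV and V have medians of 305.2 and 399.5 FPKM, and the assembly factors lie between 3.14 and 14.2 FPKM.

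Complex I was evenly expressed in both groups. Its 35 loci had a median log2 fold change of 0.01, with 18 higher and 17 lower means in CF and a range from −0.38 to 0.13. The most abundant per length was Ndufa3, an accessory subunit, at 325.7 FPKM over the 8 libraries. It was at 76.1 ± 11.4 CPM in CF and 72.6 ± 16.3 in WT (SD, n = 4 each), a log2 fold change of 0.07 (SE 0.16). Ndufb9, another accessory subunit and the next in abundance at 266.2 FPKM, was at 169.4, 203.7, 173.7 and 166.9 CPM in CF libraries 0 to 3 and at 140.3, 174.3, 180.6 and 205.4 CPM in WT libraries 0 to 3. For Ndufb9 the highest and the lowest values were both WT libraries, and the log2 fold change was 0.03 (SE 0.13).

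A pair of subunits that carry redox centres of complex I overlapped between the groups as well. Ndufv1, which binds NADH and flavin, had the highest log2 fold change of the complex at 0.13 (SE 0.13, adjusted p = 0.668). It was at 163.0, 203.5, 163.1 and 169.3 CPM in CF libraries 0 to 3 and at 135.0, 147.9, 167.5 and 187.0 CPM in WT libraries 0 to 3, so that the WT values ran from below to above all but 1 of the CF values. Ndufs1, the large iron-sulfur subunit, was at 173.5 ± 15.1 CPM in CF and 191.7 ± 17.7 in WT (SD, n = 4 each). It is shown here as a catalytic subunit, chosen after its values were seen.

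Ndufc2, a membrane subunit of complex I, was 1 of the 2 members with an unadjusted p under 0.05. It was at 56.9, 55.1, 56.8 and 52.4 CPM in CF libraries 0 to 3 and at 53.7, 67.3, 65.8 and 79.5 CPM in WT libraries 0 to 3. WT library 0 lay among the CF values and the other WT libraries above them. The log2 fold change was −0.27 (SE 0.12, adjusted p = 0.322).

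Complex II, the link between the respiratory chain and the citric acid cycle, had log2 fold changes from −0.09 to 0.07 for its 4 genes. Sdhd, a membrane anchor, was its most abundant member per length at 285.2 FPKM, and had the highest fold change at 0.07 (SE 0.12). It was at 271.3, 314.0, 283.5 and 282.3 CPM in CF libraries 0 to 3 and at 230.4, 280.0, 272.9 and 314.3 CPM in WT libraries 0 to 3. Sdhb, the iron-sulfur subunit, was at 249.4, 349.2, 288.3 and 251.7 CPM in CF libraries 0 to 3 and at 254.3, 286.2, 310.8 and 362.2 CPM in WT libraries 0 to 3, a log2 fold change of −0.09 (SE 0.15). In both genes CF library 1 and WT library 3 were the highest of their groups. Sdha, the flavoprotein that oxidises succinate, and Sdhc, the other anchor, lay at −0.08 (SE 0.14) and 0.06 (SE 0.14) in log2 fold change.

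Complex III had a median log2 fold change of 0.02 over 9 loci, from −0.11 to 0.17. Uqcrh, the hinge protein that assists electron transfer to cytochrome c, was highest per length at 354.9 FPKM and lowest in fold change. It was at 174.8, 184.9, 158.7 and 153.1 CPM in CF libraries 0 to 3 and at 136.7, 177.6, 189.9 and 219.7 CPM in WT libraries 0 to 3, a log2 fold change of −0.11 (SE 0.14). All CF values lay inside the WT range. The Rieske iron-sulfur subunit Uqcrfs1 was at 231.2 ± 18.0 CPM in CF and 221.0 ± 41.9 in WT (SD, n = 4 each). Uqcrq, a small subunit, had the highest fold change of the complex at 0.17 (SE 0.12, adjusted p = 0.544). For Uqcrb the log2 fold change was −0.07 (SE 0.15) at the locus on chromosome 7 and 0.16 (SE 0.13) at that on chromosome 1.

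Cytochrome c, the soluble carrier between complexes III and IV and a trigger of apoptosis when released, was at 214.3, 242.6, 206.3 and 166.4 CPM in CF libraries 0 to 3. In WT libraries 0 to 3 Cycs was at 146.8, 192.5, 202.1 and 262.9 CPM. Its log2 fold change was 0.04 (SE 0.18, adjusted p = 0.932). WT libraries 0 and 3 formed both ends of the range.

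Complex IV had a median log2 fold change of 0.01 over 15 loci, 8 higher and 7 lower in CF. Its widely expressed nuclear subunits were level. Cox6a1, a regulatory subunit and the most abundant per length at 725.5 FPKM, was at 332.0, 463.2, 397.7 and 363.9 CPM in CF libraries 0 to 3 and at 279.2, 347.8, 378.8 and 406.7 CPM in WT libraries 0 to 3, a log2 fold change of 0.14 (SE 0.15). Cox6c, the next at 705.7 FPKM, had a log2 fold change of 0.03 (SE 0.14). Cox4i1, through which ATP regulates the enzyme, was at 433.0 ± 51.0 CPM in CF and 435.4 ± 60.7 in WT (SD, n = 4 each). The CF and WT ranges overlapped in all 3 genes.

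The lowest fold change of all members was that of the short Cox6b1 locus on chromosome 2, which spans 261 bases. It was at 2.07, 3.44, 2.18 and 2.39 CPM in CF libraries 0 to 3 and at 2.31, 4.01, 5.40 and 4.44 CPM in WT libraries 0 to 3, with 492 fragments in all. CF libraries 1 and 3 lay within the WT range and WT library 0 within the CF range. The log2 fold change was −0.68 (SE 0.28, adjusted p = 0.29). On the authors' FPKM values it was −0.40 with a pseudocount of 1 and −0.41 with a pseudocount of 0.1. The main Cox6b1 locus on chromosome 1 held 25999 fragments and had a log2 fold change of 0.03 (SE 0.14), so the gene as a whole did not share the lower value.

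Alternative subunits that are known from muscle, lung, testis or low oxygen were minor here. For each pair the share is the alternative gene's FPKM over the sum of both. Cox4i2, the form known from lung and low oxygen, took 1.15%, 0.532%, 0.822% and 0.579% beside Cox4i1 in CF libraries 0 to 3, and 1.15%, 1.02%, 0.949% and 0.681% in WT libraries 0 to 3. Cox6a2, the heart and skeletal muscle form, took 0.665% ± 0.343 in CF and 0.602% ± 0.197 in WT beside Cox6a1 (SD, n = 4 each). The testis form Cox6b2 took 1.60% ± 0.407 and 2.44% ± 1.13 beside Cox6b1. All 3 ranges overlapped between the groups. Cox6a2 had the highest log2 fold change of all members, 0.29 (SE 0.30, adjusted p = 0.687), on 274 fragments in all.

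Ndufa4l2, a paralogue of Ndufa4 known to be induced in low oxygen, took 0.553% ± 0.217 of the pair in CF and 0.664% ± 0.0918 in WT (SD, n = 4 each). It had the lowest fold change of complex I, −0.38 (SE 0.25, adjusted p = 0.507), at 1.59, 1.07, 1.01 and 1.10 CPM in CF libraries 0 to 3 and 1.46, 1.91, 1.49 and 1.37 CPM in WT libraries 0 to 3. Only CF library 0 lay within the WT range. Ndufa4 itself, now counted with complex IV by many authors, was at 117.1 to 147.9 CPM in the CF libraries and 135.8 to 146.1 CPM in the WT libraries. The testis cytochrome c gene Cyct, no member by its name, took 0.0632% ± 0.0353 and 0.135% ± 0.0864 beside Cycs. The muscle forms Cox7a1 and Cox8b and the testis forms Cox7b2 and Cox8c held 51, 1, 0 and 1 fragments over the 8 libraries.

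Complex V held the most abundant nuclear transcripts, with a median log2 fold change of −0.08 over 14 loci, 5 higher and 9 lower in CF. Atp5b (chromosome 7, 2504695 to 2511749), the catalytic beta subunit, was highest of all nuclear members at 1354.3 FPKM. Its levels were 2265.7, 2898.3, 2543.6 and 2354.3 CPM in CF libraries 0 to 3 and 2153.5, 2305.4, 2419.5 and 2965.5 CPM in WT libraries 0 to 3, a log2 fold change of 0.03 (SE 0.16). Its partner Atp5a1, the alpha subunit, was at 1179.8 ± 105.9 CPM in CF and 1233.6 ± 169.3 in WT (SD, n = 4 each). For both, WT library 3 was highest and CF library 1 next.

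The proton-carrying c subunit is made from 3 genes that encode the same mature protein. Atp5g3 was at 356.7 ± 31.5 CPM in CF and 338.6 ± 41.9 in WT, Atp5g2 at 247.7 ± 14.4 and 218.7 ± 22.8 CPM, and Atp5g1 at 210.1 ± 26.1 and 208.2 ± 35.7 CPM (SD, n = 4 each). Their log2 fold changes were 0.08 (SE 0.12), 0.18 (SE 0.11) and 0.01 (SE 0.15). None of the 3 stood apart from the others between groups.

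Atp5d, the delta subunit of the central stalk, had the highest fold change of complex V. It was at 264.9, 368.3, 288.0 and 297.3 CPM in CF libraries 0 to 3 and at 236.0, 234.3, 265.9 and 308.1 CPM in WT libraries 0 to 3, a log2 fold change of 0.22, an SE of 0.14 and an adjusted p of 0.477. WT library 3 lay above 3 of the CF libraries. Atp5s, coupling factor B, had the lowest at −0.33 (SE 0.25, adjusted p = 0.562) on 237 fragments in all. Atp5i and Atp5e, small subunits of the complex, lay at −0.24 (SE 0.15) and −0.17 (SE 0.14) in log2 fold change.

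Assembly factors of complex I were weakly expressed, with log2 fold changes from −0.25 to 0.25. Ndufaf3 and Ndufaf4, which act together early in assembly, were the most abundant at 14.2 and 11.8 FPKM. Ndufaf4 was at 50.6, 26.9, 35.4 and 36.6 CPM in CF libraries 0 to 3 and at 24.2, 37.5, 37.6 and 36.2 CPM in WT libraries 0 to 3, a log2 fold change of 0.14 (SE 0.20). CF library 0 was highest and WT library 0 lowest. Ndufaf7, a methyltransferase that acts during assembly, had a log2 fold change of 0.25, an SE of 0.14 and an adjusted p of 0.443, and Ndufaf2 one of −0.25 (SE 0.18, adjusted p = 0.535).

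Members varied together between libraries more than between groups. As the median over nuclear members of the log2 deviation from the mean of the 8 libraries, CF libraries 0 to 3 lay at −0.05, 0.18, −0.02 and −0.09, and WT libraries 0 to 3 at −0.25, −0.06, 0.07 and 0.24. WT library 3 held the highest value in 51 of the 85 nuclear members (60.0%), against 11.9% of all loci tested, and CF library 1 held it in 21 (24.7%, against 13.6%). WT library 0 held the lowest value in 55 (64.7%, against 15.7%). The spread between libraries of the WT group was thus wider than the difference between the groups' means of these values, 0.01 in CF and 0.00 in WT.

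The same libraries were high and low in each complex. In WT library 0 the medians were −0.23, −0.23, −0.34, −0.31 and −0.23 for complexes I to V, and in WT library 3 they were 0.23, 0.26, 0.22, 0.24 and 0.26. In CF library 1 they were 0.16, 0.25, 0.20, 0.23 and 0.19. The 4 MT loci with gene symbols were low in WT library 0 too (−0.22) and high in CF library 1 (0.21), with 0.14 in WT library 3. Assembly factors had another order, highest in CF library 0 (0.16) and lowest in CF library 1 (−0.17).

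**Figure D4:**
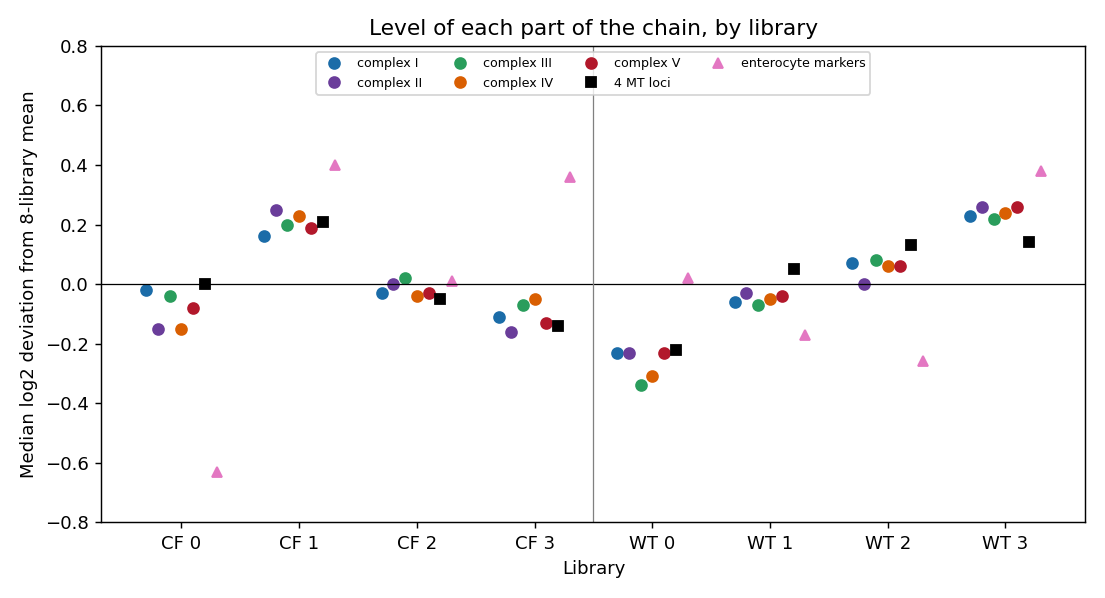
Median log2 deviation from the mean of the 8 libraries, in each CF and WT library, for complexes I to V (circles), the 4 loci on chromosome MT with gene symbols (squares) and enterocyte markers (triangles). Complexes I to V lie close together in each library, lowest in WT library 0 and highest in WT library 3 and CF library 1.

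Markers of cell types also differed between libraries, and their part in these levels was not tested. Enterocyte markers had median deviations of −0.63, 0.40, 0.01 and 0.36 in CF libraries 0 to 3 and 0.02, −0.17, −0.26 and 0.38 in WT libraries 0 to 3. They were thus high in the 2 libraries where the chain was highest, but their lowest library was CF library 0, where the nuclear members lay at −0.05. Enterocyte markers were also high in CF library 3, where the nuclear members lay at −0.09. In WT library 0, where the nuclear members were lowest at −0.25, these markers lay at 0.02. The summed level of enterocyte markers ran from 17920.3 to 43039.1 CPM in the CF libraries, against 24290.4 to 41274.2 CPM in the WT libraries. Of their 21 tested loci 13 were higher and 8 lower in CF, or 6 and 15 under scaling by total fragments, and 0 passed the main test or DESeq2, with 3 at an unadjusted p under 0.05 against 15.1% of all loci tested. With no low-count filter edgeR called 1, Krt20, against 553 of 40061 loci in all. The split also turned without CF library 1 (6 and 15), WT library 1 (10 and 11) or WT library 2 (9 and 12), and with limma-voom (9 and 12). They ranged from −0.50 (SE 0.39) for the lactase gene Lct to 1.44 (SE 0.73) at the weaker locus of the peptide transporter gene Slc15a1.

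Smooth muscle markers summed to 5837.3 to 7612.5 CPM in CF and to 3881.7 to 5705.0 CPM in WT, lowest in WT library 3. Their 8 tested loci ran from −0.10 (SE 0.17) for the myosin kinase gene Mylk to 0.97 (SE 0.18, adjusted p = 0.0689) for the desmin gene Des, 7 higher and 1 lower in CF and 0 called. At an unadjusted p under 0.05 there were 2 of the 8, against 15.1% of all loci tested, Des and the calponin gene Cnn1. Both were called by DESeq2 and by edgeR with no low-count filter, which called 566 and 553 of 40061 loci. Without WT library 3 the split was 4 and 4, with a median of 0.00 against 0.13 in the main fit. Red cell markers summed to 90.4 to 126.8 CPM in CF and 155.1 to 352.7 CPM in WT. All 6 of their loci had lower means in CF, from Hba-a1 at −0.77 (SE 0.80) to the weaker locus of Hba-a2 at −2.47 (SE 0.72). At an unadjusted p under 0.05 there were 5 of the 6 (83.3%, against 15.1% of all loci tested), and 5 did not overlap between the groups (against 8.77%). DESeq2 called 3, in Alas2, Hba-a2 and Hbb, against 566 of 40061 loci in all. In the main test 1 passed, the main locus of the globin gene Hba-a2 at −1.07 (SE 0.16, adjusted p = 0.0339). Over the alternative fits its adjusted p ran from 2.3e-08 to 0.192, and removing CF library 1 (0.0681) or CF library 3 (0.116), or WT library 1 (0.147), 2 (0.147) or 3 (0.094), ended the call. Mature red cells carry no mitochondria. In the main scaling, the sums of smooth muscle and of red cell markers did not overlap between the groups, unlike the chain. For smooth muscle the gap was narrow, from 5705.0 CPM in WT library 1 to 5837.3 CPM in CF library 0. Of the 8 smooth muscle loci 2 did not overlap, against 8.77% of all loci tested. Whether these sums also stay apart under scaling by total fragments was not tested.

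Tissues rich in mitochondria that could lie near the gut left little signal, and per the labels' protocol fat and mesentery were trimmed off. The brown fat gene Ucp1 was at 0 fragments in all 8 libraries, and brown adipocyte markers summed to 2.14 to 10.8 CPM in CF and 6.48 to 10.8 CPM in WT. Of their 3 tested loci, all lower in CF, Adipoq was at −0.30 (SE 0.54) and Plin1 at −0.90 (SE 0.36, adjusted p = 0.279). Both are genes of fat cells in general and do not mark brown fat alone. At an unadjusted p under 0.05 there was 1 of the 3 (33.3%, against 15.1% of all loci tested). The groups did not overlap for 1 (33.3%, against 8.77%). Striated muscle markers summed to 56.4 to 95.4 CPM in CF and 52.6 to 70.2 CPM in WT. Of 6 tested loci 3 were higher and 3 lower, from −1.36 (SE 0.89) for Myh6 to 1.63 (SE 0.32, adjusted p = 0.0814) for Acta1, and 0 passed. At an unadjusted p under 0.05 there was 1, Acta1 (16.7%, against 15.1% of all loci tested). Acta1 was called by DESeq2 and by limma on log2(FPKM + 0.1), which called 566 of 40061 and 15 of 16941 loci. It was also called by edgeR without CF library 0, which called 136 of 17407 loci.

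Other genes of the pathway were read from lists of named genes. Under scaling by total fragments the splits of these lists also moved, and they are given beside the main ones. Leaving out 1 library turned 2 of them: regulators without CF library 0 (12 higher, 16 lower), and uncoupling and oxidant defence without CF library 1 (4 and 7) or WT library 0 (5 and 6). At an unadjusted p under 0.05 in edgeR's test, against 15.1% of all loci tested, the lists held 0 loci among further assembly factors and 2 among further subunits and carriers (11.8%). There were 2 among regulators (7.14%), 1 in the citric acid cycle (6.25%) and 4 in outer membrane and import (13.3%). Uncoupling and oxidant defence held 1 (9.09%) and glycolysis 6 (30.0%). DESeq2 called 4 loci over these 7 lists, named below, against 566 of 40061 loci in all. Further assembly factors of all complexes (39 tested loci) included 14 with a higher and 25 with a lower mean in CF and 0 called, with a median of −0.05. By total fragments the split was 8 and 31. They ran from −0.31 (SE 0.23) for Sdhaf4, an assembly factor of complex II, to 0.32 (SE 0.19) at 1 of the loci of the copper chaperone gene Cox11. Further subunits and mobile carriers numbered 17, of which 14 were higher and 3 lower in CF with a median of 0.12, and 0 were called. By total fragments the split was 12 and 5. Among them the groups did not overlap for 3 loci (17.6%, against 8.77% of all loci tested).

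The extremes of that list were a pair of coenzyme Q binding proteins. Coq10b was at 59.0, 57.5, 45.3 and 54.6 CPM in CF libraries 0 to 3 and at 36.9, 42.4, 40.9 and 41.4 CPM in WT libraries 0 to 3, a log2 fold change of 0.42, an SE of 0.11 and an adjusted p of 0.13. Coq10a was at 4.34, 4.01, 4.52 and 4.09 CPM in CF libraries 0 to 3 and at 5.11, 5.67, 6.89 and 4.78 CPM in WT libraries 0 to 3, a log2 fold change of −0.41, an SE of 0.17 and an adjusted p of 0.301. The groups did not overlap in either gene and lay in opposite order, and neither passed the test. DESeq2 called Coq10b.

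Regulators of mitochondrial gene expression numbered 28 tested, with 16 higher, 12 lower and 0 called, or 12 higher and 16 lower by total fragments. Ppargc1a, the coactivator PGC-1 alpha that drives mitochondrial biogenesis, had the lowest fold change. It was at 27.5, 47.8, 39.7 and 33.1 CPM in CF libraries 0 to 3 and at 34.5, 62.3, 57.9 and 65.7 CPM in WT libraries 0 to 3, a log2 fold change of −0.57, an SE of 0.22 and an adjusted p of 0.271. WT library 0 lay within the CF range, and the other WT libraries above it. Fastkd2, which acts on mitochondrial RNA, had the highest at 0.30 (SE 0.15, adjusted p = 0.365). Nrf1 and Tfam were named after their values were seen. The transcription factor gene Nrf1, whose motif is shown above, was at 38.6 ± 1.52 CPM in CF and 32.5 ± 2.47 in WT (SD, n = 4 each), a log2 fold change of 0.25, an SE of 0.09 and an adjusted p of 0.256. Tfam, the packaging factor of mitochondrial DNA, was at 58.9 ± 5.78 and 61.1 ± 2.09 CPM, a log2 fold change of −0.05 (SE 0.10).

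Genes that feed the chain, import its subunits or work beside it held 0 calls in the main test as well. Of 16 citric acid cycle and pyruvate dehydrogenase genes, 11 had higher and 5 lower means, from −0.29 (SE 0.15) for Pdhb to 0.31 (SE 0.19) for the citrate synthase gene Cs, with a median of 0.06 and a split of 8 and 8 by total fragments. Of 30 loci of the outer membrane, protein import and carriers, 25 were higher and 5 lower with a median of 0.14, or 20 and 10 by total fragments. They ran from −0.14 (SE 0.13) for the import chaperone gene Timm9 to 0.35 (SE 0.10) for Tomm40. Tomm40, the channel of the outer membrane through which precursors enter, was at 90.3, 76.4, 74.3 and 85.8 CPM in CF libraries 0 to 3. In WT libraries 0 to 3 Tomm40 was at 59.9, 65.5, 63.2 and 67.4 CPM, below all CF values, with an adjusted p of 0.153, and DESeq2 called it. Groups did not overlap for 4 of the 30 (13.3%, against 8.77% of all loci tested).

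Uncoupling and oxidant defence genes numbered 11 tested, 7 higher and 4 lower, or 3 and 8 by total fragments, from −0.48 (SE 0.54) for Ucp3 to 0.63 (SE 0.24, adjusted p = 0.276) for the lipid peroxidase gene Gpx4. Glycolysis genes, the route to ATP outside mitochondria, were 12 higher and 8 lower of 20 tested, or 11 and 9 by total fragments, with 6 of the 20 at an unadjusted p under 0.05 against 15.1% of all loci tested. Hk2, the hexokinase that binds the outer mitochondrial membrane, was at 240.0, 119.1, 99.1 and 199.2 CPM in CF libraries 0 to 3 and at 53.0, 81.6, 92.8 and 83.1 CPM in WT libraries 0 to 3. Its CF values ranged widely and all lay above the WT values, with a log2 fold change of 1.08, an SE of 0.29 and an adjusted p of 0.155. DESeq2 called Hk2 and the aldolase gene Aldoa. Pdk2, a kinase that restrains pyruvate dehydrogenase, had the lowest fold change at −0.57 (SE 0.27, adjusted p = 0.365).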

How the data were processed

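Stranded mRNA sequencing measured transcripts in 8 libraries of rat small intestine, 4 CF and 4 WT. The submitters' processing notes name the build Rnor_6.0 and the tools Cuffdiff, StringTie, STAR 2.3.1z, cutadapt and bcl2fastq. Order and settings: not given in the sources used here. Estimated counts are Cuffdiff's raw fragments at each locus, as deposited by the authors, of which 5.99% were fractional and all were rounded. The FPKM values were scaled between libraries and by transcript length by the authors with Cuffdiff, per the file headers. They were used for levels per length and for 2 alternatives, with pseudocounts of 1 and 0.1, so those fold changes understate differences of low genes. The table's other 2 columns of values by library were left unused. The table numbers libraries from 0 to 3 and the titles from 1 to 4, so a library's group is known but not its title.

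Loci were kept by filterByExpr (minimum count 10, minimum total 15), which left 16941. Libraries held 15.3 to 20.9 M fragments and were scaled by TMM. The comparison of CF with WT used the robust quasi-likelihood test of edgeR, Benjamini-Hochberg adjustment over all loci kept, and a threshold of 0.05. The SE is the log2 fold change over the square root of the F statistic. Named genes were all MT loci, in each part of the chain the 2 members with the highest FPKM and the members with the highest and lowest fold change, called members, isoform pairs, and the extremes and called loci of 12 gene lists (231 entries). Other genes named were chosen after their values were seen. The members and lists were chosen with earlier results of these data known. Alternatives changed the scaling, filter, test, unit, rounding and libraries. Promoter windows came from RefSeq (GRCr8), a build other than that of the loci, and were matched by symbol or synonym. Tables were made in Python 3.11.15 with pandas 2.3.3, figures with matplotlib 3.10.9, and fits in R 4.3.3 with DESeq2 1.42.0, limma 3.58.1 and edgeR 4.0.16.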

Additional observations from a re-analysis of the deposited data

Results flagged for a closer look

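Within each group of 4 libraries, a value was singled out when its gap to the nearest other library divided by the group's range exceeded Dixon's 95% critical value. Of 180 such groups over the 90 members, 15 held such a value. Chance gives about 1 in 20 for independent groups, but members varied together between libraries, so these groups were not independent. The share over all loci was not counted, so 15 is not read as an excess.

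CF library 1 stood above the other CF libraries in 5 subunit genes. It was at 203.5 CPM for Ndufv1 (others 163.0 to 169.3), 77.0 CPM for Ndufb4 (66.4 to 67.4), 403.9 CPM for Atp5g3 (339.3 to 343.5), 252.4 CPM for Cox5a (213.0 to 214.3) and 249.4 CPM for Atp5l (208.5 to 213.3). The same held for Cox7a2l, which acts in joining complexes into supercomplexes, at 157.5 CPM (118.6 to 123.5).

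CF library 0 stood above the others in 2 genes listed with complex I and 2 of its assembly factors. It was at 72.9 CPM for Ndufs4 (61.8 to 62.3), 1.59 CPM for Ndufa4l2 (1.01 to 1.10), 12.3 CPM for the assembly factor gene Ndufaf2 (9.47 to 9.53) and 11.2 CPM for Ndufaf5 (9.28 to 9.42). CF library 3 was low in the Mt-nd6 locus, at 1753.4 CPM (2309.2 to 2337.1).

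In the WT group, library 3 was high in Ndufab1, the mitochondrial acyl carrier protein, at 91.9 CPM (73.0 to 74.7), and library 0 was low in Ndufaf4 at 24.2 CPM (36.2 to 37.6). The MT locus with placeholder names was high in CF library 2 at 17320.1 CPM (533.0 to 638.4) and in WT library 2 at 22172.9 CPM (456.7 to 871.8).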

How the results depend on the processing

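The count of members called was 0 in all fits, with 0 to 4 members at an unadjusted p under 0.05 and a lowest adjusted p of 0.194 without CF library 0. The count over all loci was 28 and depended on the setting. It was 566 with DESeq2 and 553 with no low-count filter, each over 40061 loci. It was 17 with limma-voom, 17 with scaling by total fragments, 15 with limma on log2(FPKM + 0.1) and 12 on log2(FPKM + 1). With 1 library left out it ran from 5 (without WT library 1 or 2) to 136 (without CF library 0), with 6 without WT library 3 and 77 without CF library 2. The cause was not tested.

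The library numbers of the table are not those of the titles, so they pair no samples by label. With the number as a replicate block, chosen after seeing the data, 11 loci and 0 members were called. Deviations of same-numbered libraries correlated at 0.05, −0.17, 0.13 and −0.00 for numbers 0 to 3, and only those numbered 2 correlated best with each other. With both libraries numbered 2 left out, also chosen after seeing the data, 13 loci were called.

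Median log2 fold changes of the complexes and both genomes moved by less than the spread between libraries in every fit, from −0.08 to 0.09 for nuclear members and −0.16 to 0.08 for MT loci. The difference in MT share ran from −1.88 to −0.744 points. Of 513 refits of 27 named members, 510 moved by less than 1 SE, and none reached the threshold. The MT share without ribosomal and transfer RNA genes was not run, since MT loci mix kinds of genes. The share without the locus of placeholder names was added instead, after seeing the data. For 11 members the interval reached past 1.5-fold, and how far depth or spread between libraries set its width was not tested.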
